A study of Mus musculus with 4 samples.

Results

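The genes described here are 10 that mark neutrophils in the mouse: S100a8, S100a9, Retnlg, Ltf, Camp, Ngp, Mpo, Elane, Ly6g and Csf3r. They were taken from a list of names and found on the arrays through the transcript accession of each probe. All 10 were found, with 1 probe each, among 23462 genes named in this way and 56605 probes in all. Liver RNA came from male mice of C57BL/6 background aged 24 weeks. F/F mice carried floxed Lpiat1 (Mboat7) without Cre. LKO mice carried the same floxed alleles with Cre under the albumin promoter, a promoter of hepatocytes and not of neutrophils or other blood cells. Both genotypes were fed chow (CE2) or a high fat diet (HFD, HFD-60) for 18 weeks from an age of 6 weeks. There was 1 one-colour array for each of the 4 combinations, and pooling of mice is not mentioned in the sources used here. No difference thus has a replicate check and no test was made.

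Neutrophils are short-lived phagocytes that leave the bone marrow with their granules already filled. Azurophil granules, made first, hold myeloperoxidase (Mpo) and neutrophil elastase (Elane). Specific granules follow, with lactoferrin (Ltf), the cathelicidin precursor (Camp) and neutrophilic granule protein (Ngp). The mRNAs of these granule proteins are most abundant in marrow precursors, whereas S100a8, S100a9 and Retnlg remain abundant in mature blood neutrophils. Ly6g and Csf3r, the receptor for granulocyte colony-stimulating factor, are carried on the cell surface. In fatty liver disease with inflammation, neutrophils are among the cells that enter the tissue.

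Of the 10 genes, S100a8, S100a9 and Retnlg differed together over the 4 arrays. They were lower in LKO than in F/F on both diets, and most so on chow, where the folds were 2.02 for S100a8, 1.98 for S100a9 and 2.23 for Retnlg. Ltf and Mpo were close to background and stood highest on the LKO HFD array, which for Mpo depended on the background correction. After scaling, Elane stayed within the technical spread over the 4 arrays, Ly6g ranged over 0.19 (log2), and Ngp was not well above background on any of them. The genomic stretches just upstream of the 3 genes that differed together are shown here for reference. Each is the 250 bases before the RefSeq start site of the gene in build GRCm38.p6, read 5′ to 3′ on the strand of the gene. Capitals mark matches to TTGCNNAA (C/EBP), GAGGAA (PU.1) and TGTGGT (RUNX) on either strand and to TATAAA on the strand of the gene.
S100a8, chr3:90668821-90669070, plus strand: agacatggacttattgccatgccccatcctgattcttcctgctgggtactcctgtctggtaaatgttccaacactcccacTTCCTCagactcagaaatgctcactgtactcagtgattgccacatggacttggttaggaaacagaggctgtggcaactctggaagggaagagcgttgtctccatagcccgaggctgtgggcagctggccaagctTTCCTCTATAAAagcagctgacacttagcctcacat
S100a9, chr3:90695722-90695971, minus strand: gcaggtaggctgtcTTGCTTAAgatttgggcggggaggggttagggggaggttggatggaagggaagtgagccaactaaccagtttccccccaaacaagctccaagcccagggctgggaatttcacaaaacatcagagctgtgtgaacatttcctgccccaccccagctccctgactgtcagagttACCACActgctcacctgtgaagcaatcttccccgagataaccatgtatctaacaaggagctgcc
Retnlg, chr16:48872358-48872607, plus strand: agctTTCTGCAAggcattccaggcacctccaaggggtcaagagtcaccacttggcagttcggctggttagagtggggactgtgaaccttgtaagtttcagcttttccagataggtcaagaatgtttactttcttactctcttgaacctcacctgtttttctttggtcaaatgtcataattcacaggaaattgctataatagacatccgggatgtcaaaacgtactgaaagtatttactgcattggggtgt
The S100a8 window holds 2 GAGGAA matches and a TATAAA that starts 30 bases before the start site and directly follows one of them. The S100a9 window holds a C/EBP match that starts 236 bases before the start site and a RUNX match at 64 bases. The Retnlg window holds a single match, to C/EBP, at 246 bases. No marked matches overlap one another in these windows, and no motif was found in all of them. Over the 10 genes there are 11 such windows, because Ly6g has 2 start sites. A C/EBP match was in 5 of the 11, against 9.56% of 32851 mouse promoter windows of the same length, and a PU.1 match in 7, of 6 genes, against 23.3%. RUNX matches were in 1 of them (14% of all windows) and TATAAA in 3 (7.59%). The 2 windows of Ly6g overlap and hold the same PU.1 and TATAAA matches. A match is a description of the letters and not a binding site.

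Signals are given below as normalised signal, the processed intensity of the probe divided by the 75th percentile of the spots of that array, so that the ratio between 2 arrays is the fold. The 75th percentile lay between 213 and 296 intensity units, and between 53.0% and 57.0% of the spots were well above background. The technical spread is the SD of the log2 difference between 2 replicate spots on 1 array. It was 0.072 for signals over 1000, 0.13 for signals of 100 to 1000, 0.20 for 30 to 100, 0.38 for 10 to 30 and 0.64 for probes not well above background. It leaves out the differences between mice and also the technical differences between arrays. A difference beyond it may thus still be technical. The values for 10 to 30 and 30 to 100 rest on 15 and 21 cases of a probe on an array. For the single probe of Mboat7, LKO minus F/F was -0.30 on chow and -0.27 on HFD (log2). Its place relative to the deleted exons was not determined, so that it does not check the labels. Of the hepatocyte markers, the 9 on the array were well above background on all 4 arrays.

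S100a8 and S100a9 encode the subunits of calprotectin, the most abundant cytosolic protein of neutrophils, which is also made by monocytes. The normalised signal of S100a8 (NM_013650, chr3:90669071-90670034 in GRCm38.p6) was 4.31 with chow and 4.40 with HFD in F/F, and 2.14 with chow and 2.76 with HFD in LKO. Both F/F arrays lay above both LKO arrays. The F/F arrays differed by 0.029 (log2), within the technical spread, while the step from F/F chow down to LKO HFD was 0.65 and that from LKO HFD to LKO chow 0.37. The normalised signal of S100a9 (NM_001281852, chr3:90692630-90695721) was 15.3 with chow and 16.3 with HFD in F/F, and 7.73 with chow and 9.74 with HFD in LKO. It followed the same order, and the log2 ratio between S100a9 and S100a8 changed by no more than 0.068 over the 4 arrays. LKO minus F/F was -1.01 (log2) for S100a8 and -0.99 for S100a9 on chow, and -0.68 and -0.74 on HFD. HFD minus chow was 0.03 and 0.09 in F/F and 0.37 and 0.33 in LKO. The 0.09 of S100a9 in F/F was beyond the technical spread of 0.072 at its brightness. In bulk liver RNA, fewer neutrophils, less mRNA per neutrophil and less of this mRNA from monocytes cannot be told apart.

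Retnlg encodes a resistin-like secreted protein made in the bone marrow and in blood neutrophils. Its normalised signal (NM_181596, chr16:48872608-48874498) was 0.612 with chow and 0.623 with HFD in F/F, and 0.274 with chow and 0.425 with HFD in LKO. The order of the arrays was that of S100a8. As for S100a8, but not S100a9, the F/F arrays differed by less than the technical spread. LKO minus F/F was -1.16 (log2) on chow and -0.55 on HFD, and HFD minus chow was 0.03 in F/F and 0.63 in LKO.

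**Figure D1:**
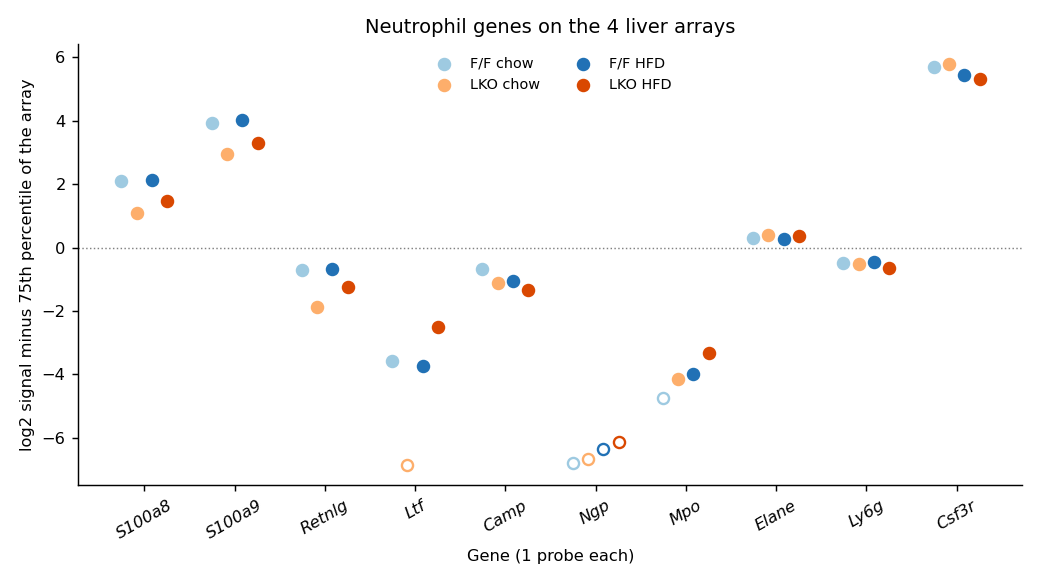
Normalised log2 signal (vertical axis) of the 10 neutrophil genes (horizontal axis, 1 probe each) on the 4 arrays. Filled points are well above background and open points are not; levels may be compared within a gene and not between genes. S100a8, S100a9 and Retnlg are lowest on the LKO chow array, and Ngp is open on all 4 arrays.

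The specific granule genes did not share 1 pattern. Ltf encodes lactoferrin, an iron-binding antimicrobial protein, and had a signal of 18.5 with chow and 19.6 with HFD in F/F, and 1.84 with chow and 51.6 with HFD in LKO before normalisation. It was not well above background on LKO chow. On chow Ltf was at least 2.19-fold lower in LKO than in F/F, whereas on HFD it was 2.34-fold higher in LKO (log2 difference 1.23). For signals of 10 to 30 the technical spread was 0.38, and with normexp background correction the difference on HFD shrank to 0.20 and that on chow to -0.23. Camp, which encodes the precursor of the antimicrobial peptide CRAMP, had a normalised signal of 0.620 with chow and 0.484 with HFD in F/F, and 0.463 with chow and 0.394 with HFD in LKO. It was highest on F/F chow and lowest on LKO HFD, and F/F HFD and LKO chow did not differ beyond the technical spread. LKO minus F/F was -0.42 on chow and -0.30 on HFD. Ngp, a relative of the cathelicidins encoded like Camp and Ltf on chromosome 9, had signals between 2.01 and 4.20 before normalisation and has no value in any comparison.

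Of the azurophil granule genes, Mpo encodes the enzyme that makes hypochlorous acid. Its signal was 8.36 with chow and 16.6 with HFD in F/F, and 12.0 with chow and 29.3 with HFD in LKO before normalisation, and it was not well above background on F/F chow. On chow Mpo was 1.49-fold higher in LKO (log2 difference 0.57), taken against the dim F/F chow signal itself. This difference is smaller than the technical spread of 0.64 for probes not well above background. On HFD Mpo was 1.57-fold higher in LKO (log2 difference 0.65). HFD minus chow was 0.82 in LKO. With normexp background correction the difference between genotypes on HFD was 0.06 and that between diets in LKO turned to -0.07. Elane encodes a serine protease of the same granules. Its normalised signal was 1.24 with chow and 1.20 with HFD in F/F, and 1.31 with chow and 1.29 with HFD in LKO. The highest and lowest arrays differed by 0.12 (log2), less than the technical spread of 0.13. Among the alternatives HFD minus chow in LKO reached 0.46 and LKO minus F/F on HFD 0.27. The signal of Elane before normalisation was 275 to 383, and its probe was not checked for binding of other transcripts.

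The surface genes did not follow S100a8 either. Ly6g, the antigen most used to identify mouse neutrophils, had a normalised signal of 0.711 with chow and 0.733 with HFD in F/F, and 0.691 with chow and 0.644 with HFD in LKO. Both F/F arrays lay above both LKO arrays, as for S100a8. No neighbouring pair in the order from high to low differed beyond the technical spread, and the whole range was 0.19 (log2). LKO minus F/F was -0.04 on chow, within the technical spread of 0.13, and -0.19 on HFD, beyond it. Among the alternatives the difference on HFD was as small as -0.0197. The single probe of Csf3r could not be checked for binding of other transcripts, so that its signal may not be that of Csf3r alone. Its signal before normalisation was nearly the same on all 4 arrays, at 11553 with chow and 11536 with HFD in F/F, and 11768 and 11818 in LKO. Dividing by the 75th percentile, which was higher on the HFD arrays, gave normalised signals of 52.1 and 43.8 in F/F and of 55.2 and 40.0 in LKO. HFD minus chow was then -0.25 in F/F and -0.46 in LKO, but -0.00215 and 0.00612 without scaling between arrays. Without scaling the sign of the diet difference changed in LKO, and so did that of LKO minus F/F on HFD, from -0.13 to 0.035.

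In LKO against F/F on chow, 3 of the 9 members with a value were at least 2-fold lower (S100a8, Retnlg and, as a bound, Ltf) and 0 were at least 2-fold higher. The shares over the whole array were 1.03% of 14981 genes lower by this much and 1.11% higher. The median of the members was -0.42 (log2), beside 0.0033 over all genes, with 6 members lower and 3 higher. S100a8 and S100a9 lie at the 2-fold threshold itself, and with normexp only 1 member was past it. On HFD, 1 member (Ltf) was at least 2-fold higher in LKO, against 2.36% of all genes, and 0 were at least 2-fold lower, against 1.91%. The median was -0.19 beside -0.03 over all genes, again with 6 lower and 3 higher. For S100a8, S100a9 and Retnlg, LKO was below F/F on both diets under each of the 9 alternatives tried. The smallest differences among these were -0.91, -0.98 and -0.70 on chow and -0.51, -0.58 and -0.38 on HFD.

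**Figure D2:**
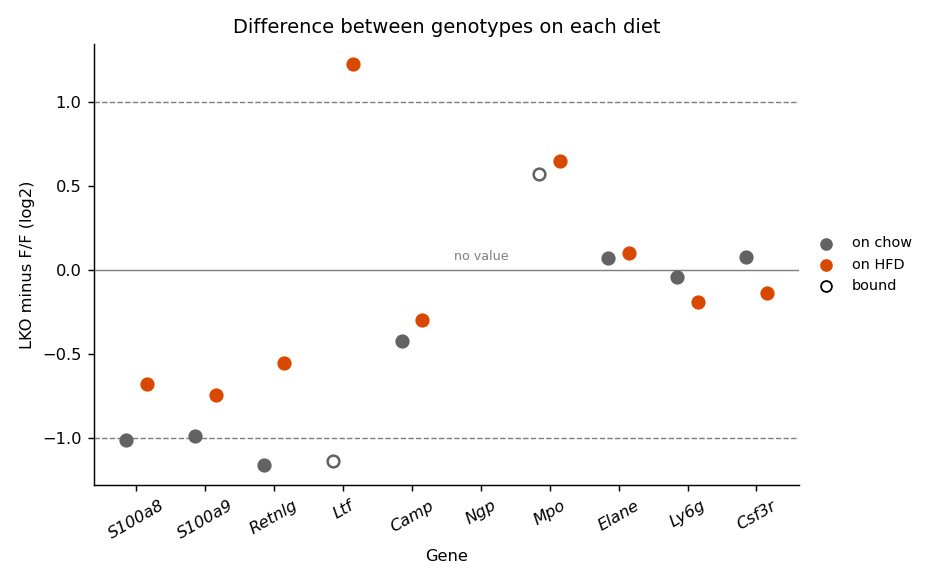
LKO minus F/F in normalised log2 signal (vertical axis) for each of the 10 genes (horizontal axis) on chow (grey) and on HFD (orange). Open points are bounds, dashed lines mark 2-fold and Ngp has no value. S100a8, S100a9, Retnlg, Camp and, within the technical spread on chow, Ly6g lie below 0 on both diets, and Ltf lies at -1.13 on chow and at 1.23 on HFD.

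In HFD against chow, none of the 9 members that could be compared (0 in either direction) reached 2-fold in F/F, where 5.21% of all genes were at least 2-fold higher and 2.94% lower. The median of the members was 0.03 beside -0.02 over all genes. In LKO, Ltf was at least 4.60-fold higher on HFD, the only member past 2-fold, against 8.12% of all genes higher and 4.07% lower. The median in LKO was 0.33 beside -0.07 over all genes, and with normexp it was 0.00443. Both comparisons within LKO and on chow use the LKO chow array, and the arrays of 1 comparison recur in others, so that the comparisons are not independent.

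The genes whose profile lay nearest to that of S100a8 were sought among 13974 other genes well above background on all 4 arrays, by the Euclidean distance between their 4 log2 values after the mean of each gene was subtracted. The nearest of these were Trp53inp1 at a distance of 0.15, Serpina12 at 0.19, Bmyc at 0.20, Dcdc2a at 0.26 and Il1r2 at 0.29. With the members included, S100a9 was the nearest of 13980 genes (0.053) and Retnlg the 4th (0.19), while Camp was the 572nd (0.70), Ly6g the 1779th, Elane the 7005th and Csf3r the 8622nd. Il1r2 encodes the decoy receptor for interleukin-1, which mouse neutrophils carry. Its normalised signal was 0.247 with chow and 0.274 with HFD in F/F, and 0.126 with chow and 0.204 with HFD in LKO. The nearest genes to the median profile of the 7 members well above background on all 4 arrays were 2310001K24Rik, Nfe2l3, Gm31365, Pik3r1 and Gm20324, at distances of 0.068 to 0.093. With 4 arrays these distances describe the arrays and are not a sign of a shared source.

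**Figure D3:**
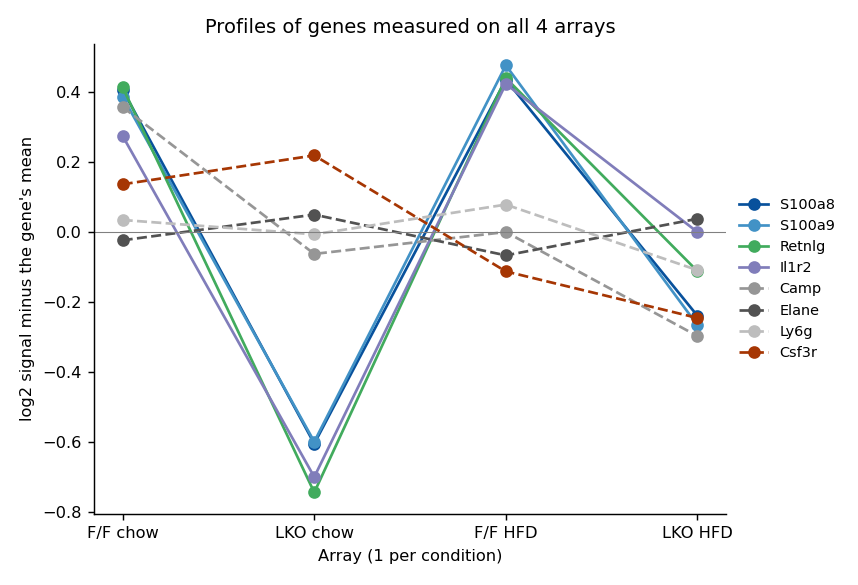
Normalised log2 signal minus the mean of the gene (vertical axis) on the 4 arrays (horizontal axis) for Il1r2 and the 7 members well above background on all arrays. Solid lines are S100a8, S100a9, Retnlg and Il1r2, which dip on LKO chow, and dashed lines are Camp, Elane, Ly6g and Csf3r, which lie nearer to 0 there.

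Other genes of neutrophils were taken from lists of granule, surface and regulatory genes. Over the whole array, LKO was above F/F in 50.7% of genes on chow and in 45.9% on HFD, and 47.8% were higher with HFD than with chow in F/F and 43.5% in LKO. Many list genes are dim, and normexp, which adds an offset of 50 to every signal, draws the differences of dim probes toward 0. Of the 80 differences of list genes past 2-fold that have a value with normexp, 32 were then below 2-fold and none changed sign (0 of 80). Of 17 further surface genes, 15 had a value in LKO against F/F on chow, 12 of them lower and 3 higher, with a median of -0.27 (log2). On HFD 10 of 16 were lower and 6 higher, with a median of -0.09, beside -0.03 over all genes. Among the alternatives this median on HFD lay between -0.12 and 0.077, so that its sign depended on the processing. Mrgpra2a, a Mas-related receptor, had signals of 87.5 with chow and 11.4 with HFD in F/F, and 3.14 with chow and 7.63 with HFD in LKO, and was at least 10.4-fold lower in LKO on chow. The F/F chow array stood alone in this gene, which in F/F was also 9.10-fold lower with HFD than with chow. Mrgpra2b of the same list had no such peak, with signals of 11.9 with chow and 13.4 with HFD in F/F. It differed by -0.07 (log2) between diets in F/F and by a bound of -0.50 between genotypes on chow. The C-type lectin receptors Clec4d and Clec4e were lower in LKO on chow by 2.01-fold and at least 2.42-fold, but differed by 0.13 and -0.06 (log2) on HFD. With normexp the differences on chow were -0.51 and -0.18, below 2-fold, and that of Mrgpra2a was -1.14. Il1r2 differed by -0.98 on chow and -0.42 on HFD. The chemokine receptor Cxcr2 differed by -0.27 and -0.17 at signals of 14.1 to 18.5, within the technical spread there. In LKO on HFD against chow, Clec4d (3.34-fold), Clec4e (at least 7.18-fold), Itgb2 (2.93-fold), the beta 2 integrin chain of all leukocytes, and Fcgr4 (3.20-fold), a Fc receptor also found on macrophages, were higher. The median of HFD minus chow over the surface genes was 0.48 in LKO and 0.02 in F/F. In F/F, Clec4e alone among the surface genes was at least 2-fold higher (log2 difference 1.63). With normexp Clec4d (0.92 in LKO) and Clec4e (0.72 in LKO, 0.65 in F/F) were below 2-fold, and the median of LKO minus F/F on chow was -0.11.

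The other specific and gelatinase granule genes showed no common direction on chow, with 7 of 15 higher in LKO, 8 lower and a median of -0.02. On HFD 9 were higher and 6 lower, with a median of 0.40. Between diets the median was 0.18 in F/F and 0.66 in LKO. With normexp these medians were 0.14 between genotypes on HFD, and -0.10 and -0.0018 between diets. The collagenase Mmp8 differed by -0.24 on chow and -0.32 on HFD, and the peptidoglycan receptor Pglyrp1 by a bound of -0.61 on chow and by 0.53 on HFD. Adam8, a membrane metalloprotease, was 3.38-fold higher in LKO on HFD and 11.6-fold higher on HFD than on chow in LKO. In this list HFD minus chow in LKO was at least 2-fold also for Chil3 (7.02-fold), Cybb (3.16-fold), Cyba (2.55-fold), Lyz2 (2.14-fold) and, as a bound, Pglyrp1 (2.61-fold). In F/F, Chil3 (3.30-fold) and Cybb (2.28-fold) were higher on HFD. With normexp, Pglyrp1 in LKO and Chil3 and Cybb in F/F were below 2-fold. All of these except Pglyrp1 are also made by monocytes or macrophages. Lcn2 and Hp, made by hepatocytes as well, differed between genotypes by 0.87 and 0.09 on chow and by 0.32 and -0.20 on HFD.

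Among the azurophil list, the proteases Prtn3 and Ctsg were well above background on only 2 of the 4 arrays each, and Ms4a3 on none. Prtn3 had signals of 13.0 with chow and 4.87 with HFD in F/F, and 18.4 with chow and 5.92 with HFD in LKO, and was at least 3.27-fold lower on HFD than on chow in LKO. The median of the 5 genes with a value on HFD was 0.62, with 4 higher in LKO, of which Cd63 (2.93-fold) and Cst7 (2.23-fold) passed 2-fold. The others higher were Srgn (0.62) and Serpinb1a (0.37). Ctsg, the only one of these proteases with a value there, was lower in LKO (-0.18), within the technical spread of 0.38 for such signals. On chow 3 of 4 were higher in LKO, with a median of 0.24, and between diets the median was 0.31 in F/F and 1.004 in LKO. These medians rest on 4 to 6 genes, and with normexp they were 0.27 on HFD, 0.12 on chow, and 0.00504 and 0.125 between diets. Cd63, a tetraspanin of granules and lysosomes in many cell types, was higher on HFD than on chow by 3.09-fold in F/F and 7.03-fold in LKO. Srgn was 2.01-fold and Cst7 at least 2.61-fold higher on HFD in LKO, and Serpinb1a, an inhibitor of neutrophil proteases, was 2.65-fold lower on HFD in F/F. With normexp Cst7 (0.20 between genotypes and 0.125 between diets) and Prtn3 were below 2-fold, while Cd63 was 1.59 between genotypes on HFD.

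Of the genes that attract neutrophils, the chemokine Cxcl1 had normalised signals of 104 with chow and 7.11 with HFD in F/F, and 52.0 with chow and 16.3 with HFD in LKO. It was thus lower on HFD than on chow by 14.6-fold in F/F and 3.18-fold in LKO, and higher in LKO than in F/F on HFD by 2.30-fold. Cxcl5 had signals of 24.8 and 22.1 in F/F and of 9.23 and 134 in LKO before normalisation, with chow first. It was 5.39-fold higher in LKO on HFD and 2.58-fold lower in LKO on chow. On HFD against chow in LKO it was 10.5-fold higher. C5ar1, the receptor of complement fragment C5a, was 2.06-fold higher in LKO on HFD. Between diets C5ar1 was higher on HFD by 2.88-fold in F/F and 3.93-fold in LKO. Ccl3 was higher on HFD by 4.20-fold in F/F and 6.46-fold in LKO. Cxcl5 and Ccl3 on LKO chow and C5ar1 on F/F chow were not well above background. The folds against those arrays are plain ratios to dim signals. With normexp Cxcl5 was 1.04 on HFD and -0.24 on chow between genotypes and 1.06 between diets in LKO. C5ar1 was then 0.38 between genotypes on HFD, and 0.19 and 0.40 between diets, and Ccl3 was below 2-fold too, whereas Cxcl1 was 1.22 between genotypes on HFD. Of the 12 genes of this list, 8 of 11 with a value were higher in LKO on HFD (median 0.34) and 4 of 9 on chow (median -0.09). Csf3, the gene for granulocyte colony-stimulating factor, was not well above background on any array, and neither were Csf2 and Il17a. Of the 12 regulators of granulocytes, 6 of 9 with a value were higher in LKO on HFD (median 0.53) and 6 of 7 on chow (median 0.12). Those higher on HFD were Spi1 (0.78), Csf2ra (0.78), Csf2rb (0.68), Gfi1 (a bound of 0.61), Csf1 (0.53) and Il17ra (0.21). The 3 lower were the C/EBP factors of the list, Cebpe (-0.20), Cebpa (-0.28) and Cebpb (-0.45), so that the list did not share 1 direction. The median on HFD was 0.10 with normexp and 0.00156 with no filter and no floor. Spi1 (at least 2.87-fold) and Csf2ra (2.87-fold), genes shared with macrophages, were higher on HFD than on chow in LKO, and Cebpe, the transcription factor of late granulocyte precursors, differed between genotypes by 0.01 on chow and -0.20 on HFD.

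Markers of other blood and liver cells were set beside the members. The 12 macrophage genes had a median LKO minus F/F of 0.0065 on chow (7 higher, 5 lower) and 0.75 on HFD (11 higher, 1 lower), and the monocyte list 0.03 and 0.51. On HFD the macrophage median and the S100a8, S100a9 and Retnlg values thus had opposite signs. The summed normalised signal of the macrophage list was 81.6 with chow and 116 with HFD in F/F, and 80.7 with chow and 185 with HFD in LKO, with Ctss the brightest. Fn1, also made by hepatocytes, gave most of the sum of the monocyte list, and without it the other 9 genes summed to 10.9 with chow and 23.6 with HFD in F/F and to 10.2 and 23.1 in LKO. In these lists Fcgr1 (2.09-fold) was higher and Nr4a1 (2.86-fold) lower in LKO on HFD. Between diets in LKO, Fcgr1 (4.72-fold), Cd68 (3.49-fold), Ctss (3.04-fold), Mpeg1 (2.68-fold), C1qa (2.27-fold), C1qb (2.57-fold) and C1qc (2.39-fold) were higher on HFD and Cd163 (2.38-fold) lower. Ccr2 was higher on HFD by 2.05-fold in F/F and, as a plain ratio to a dim LKO chow signal, 6.65-fold in LKO. Ly6c2 was higher by 2.31-fold and 2.41-fold, Cx3cr1 by 4.22-fold and 5.39-fold, Nr4a1 by 4.16-fold and 2.83-fold, and Ms4a6c by 2.95-fold in LKO. With normexp Fcgr1 on HFD between genotypes and Ccr2 were below 2-fold, as was Cx3cr1 in F/F. Chil3 and Lyz2 stand both here and in the granule list.

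The 8 Kupffer cell genes had medians of 0.06 on chow and 0.12 on HFD. Marco was lower in LKO on HFD (3.12-fold) and Spic on chow (2.01-fold), and on HFD against chow in LKO Marco (2.50-fold) and Timd4 (2.17-fold) were lower and Cd5l (2.44-fold) higher. Of the 10 red cell genes on the array, 7 had a value, and their median was -0.03 on chow and -0.94 on HFD, where all 7 were lower in LKO. Between diets it was 0.64 in F/F (5 higher, 2 lower) and 0.08 in LKO (4 higher, 3 lower). Hemgn was the brightest, at 481 with chow and 291 with HFD in F/F and at 455 and 235 in LKO, and the other 9 summed to 173 and 345 in F/F and to 172 and 175 in LKO. Unlike that sum, Hemgn was lower with HFD than with chow in F/F. Its probe was not checked for binding of other transcripts, and it was counted in the red cell medians. In F/F, Hba-a1 was 2.17-fold higher with HFD than with chow, and between genotypes it differed by -0.02 on chow and -0.98 on HFD. Hba-a2 was 2.22-fold higher on HFD in F/F, and Alas2, the first enzyme of haem synthesis in red cells, was 2.54-fold lower on HFD in LKO. Of the 12 markers of eosinophils, basophils and mast cells, 9 were not well above background on any array. The medians of LKO minus F/F on chow and on HFD were 0.03 and -0.22 for hepatocyte, 0.19 and 0.12 for platelet, -0.27 and 0.58 for T cell and -0.04 and 0.24 for B cell genes. With normexp those on HFD were -0.11 for platelet, 0.04 for T cell and 0.04 for B cell genes. Past 2-fold in these lists were G6pc (2.36-fold lower), Cd3g (2.42-fold higher), Blnk (2.46-fold higher) and the eosinophil lectin Siglecf (3.90-fold higher) in LKO on HFD. Between diets, Cps1 was lower on HFD by 2.16-fold in F/F and 2.04-fold in LKO, and G6pc was 2.09-fold higher in F/F. Pf4 was higher on HFD by 2.38-fold in F/F and 3.72-fold in LKO, Ppbp by 2.02-fold in F/F, Blnk by 2.93-fold and 5.07-fold, and Cd3g (3.60-fold), Cd79b (2.32-fold) and Siglecf (at least 6.94-fold) in LKO. With normexp Cd3g, Siglecf, Cd79b, Cps1, Ppbp, Spic and Timd4, and Pf4 in F/F, were below 2-fold. The part that the amount of blood in the samples had in the neutrophil values on HFD was not tested.

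**Figure D4:**
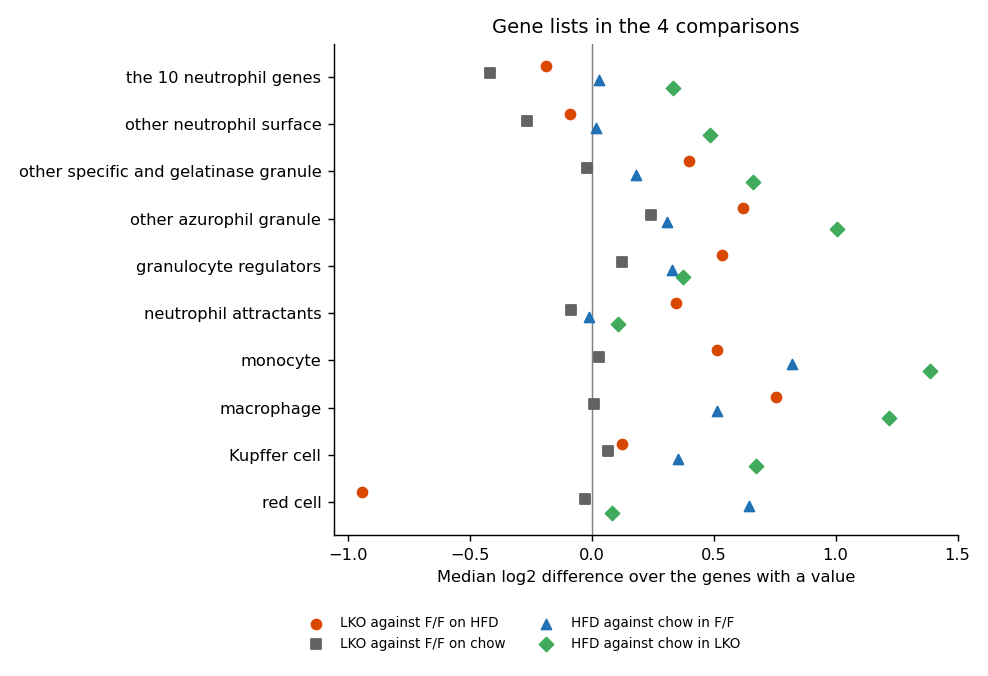
Median log2 difference (horizontal axis) over the genes with a value in each list (vertical axis), with 1 symbol for each of the 4 comparisons. The 10 neutrophil genes and the other neutrophil surface genes have negative medians in LKO against F/F on both diets, whereas the macrophage list has 0.75 on HFD and the red cell list -0.94. The median of the surface genes on HFD (-0.09) changed sign among the alternatives.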

How the data were processed

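Each liver RNA was labelled with Cy3 and measured on an Agilent SurePrint G3 mouse array, with genotype and diet as the sample labels give them. The deposited intensity of each spot is the processed signal of Agilent Feature Extraction (12.0.3.1, per the file headers), background-subtracted and detrended, with the median intensity of spot and local background and with flags. A deposited table of values holds the same processed signal times 1 factor per array.

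Spots marked as outliers were left out and spots of a probe averaged (Python 3.11.15, pandas 2.3.3, numpy 2.4.6). Each array was divided by the 75th percentile over its spots that are not controls and log2 was taken. A probe was well above background where over 0.5 of its spots carried the flag. Accessions were matched to symbols through RefSeq (GRCm38.p6) for 33767 probes (59.7%), and promoter windows come from RefSeq too. Where a gene has several probes, the brightest stood for it. A gene below background on 1 array of a comparison has a bound against the higher of the lowest signal well above background on that array (7.80 to 8.35) and its own. Where its own signal was the higher, as for Mpo on F/F chow, the bound is the plain ratio and no lower limit. No spot was saturated. With 1 array per condition, the number of arrays sets the precision.

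The members and lists were chosen with earlier results of these data known, the motifs after the values had been seen. Every member was named, with the list genes at least 2-fold different in any comparison and the 5 genes nearest to S100a8 and to the median profile; other list genes named were chosen for their role after values were seen. The steps were tested on simulated data. Alternatives included background correction by normexp on the median signals (limma 3.58.1, R 4.3.3, offset 50), quantile normalization, other percentiles, the value table, stricter and no filters, the mean of all probes, thresholds of 1.5-fold and 4-fold, and, chosen after seeing the data, no scaling. Figures were drawn with matplotlib 3.10.9.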

Additional observations from a re-analysis of the deposited data

Results flagged for a closer look

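Among the 10 members and those genes of the neutrophil lists that were at least 2-fold different in some comparison, there were 10 for which the difference in one pair of arrays and in the matching pair (the other diet, or the other genotype) had opposite signs, each beyond 0.092 (log2), the technical spread over all probes well above background; dim probes spread more widely. The difference between the pairs was not tested, since each condition has 1 array. The share of all genes on the array that meet this rule was not counted, so that the 10 cannot be set against it. Among the members only Ltf did so, with LKO minus F/F of 1.23 on HFD and a bound of -1.13 on chow, a change of 2.36, and with the same change for HFD minus chow between LKO (a bound of 2.20) and F/F (-0.16). Cxcl5 changed by 3.80, with 2.43 on HFD and a bound of -1.37 on chow, and HFD minus chow was a bound of 3.39 in LKO and -0.41 in F/F. Adam8 changed by 2.63, Cxcl1 by 2.20, Pglyrp1 by 1.14, Clec4d by 1.14, Itgb2 by 1.11, Chil3 by 1.09, Serpinb1a by 0.99 and Ccl3 by 0.62, each with LKO higher than F/F on HFD and lower on chow. Genes of these lists under 2-fold throughout were not counted, and some of them went the other way, such as Mmp9 (-0.44 on HFD and 0.35 on chow). Several of the genes are dim, and with normexp the 2 differences of Ltf between genotypes were 0.20 and -0.225. For signals of 10 to 30 the technical spread was 0.38. The -0.16 of Ltf between diets in F/F and the bound of -0.196 for Ccl3 between genotypes on chow are smaller than that. At their own brightness these 2 do not show an opposite sign.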

How the results depend on the processing

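No paired analysis was possible because there is 1 array for each condition, without replicate numbers, and no test was made. Leaving out a replicate could not be done for the same reason. The medians of the members and the numbers at least 2-fold different were the same or close under quantile normalization, the other percentiles, the value table and the mean of all probes. "Measured" here means well above background. Shares over all genes were counted at 2-fold in the main setting alone. The counts of members at other thresholds and settings have no such share beside them. In LKO against F/F on HFD, the number at least 2-fold higher changed from 1 to 0 with normexp, with genes measured on all 4 arrays alone and at 4-fold, and to 2 at 1.5-fold, where 2 were also lower. The median of -0.19 became -0.30 with genes measured on all 4 arrays alone and -0.0197 without scaling. On chow, the 3 members lower became 1 with normexp and 0 at 4-fold, and the median of -0.42 became -0.225 with normexp and -0.23 with no filter and no floor. In HFD against chow in F/F, 1 member was higher at 1.5-fold instead of 0, and the median of 0.03 became -0.0656 with normexp and 0.27 without scaling. In LKO, the 1 member higher became 0 with normexp and with genes measured on all 4 arrays alone, 3 at 1.5-fold and 3 without scaling. The median of 0.33 became 0.00443 with normexp, -0.0119 with genes measured on all 4 arrays alone and 0.80 without scaling. Without scaling, the median of all genes shifted to 0.13, -0.05, 0.22 and 0.39 in these comparisons. Changes with the threshold and with fewer genes follow from how those alternatives are built, and elsewhere the cause was not tested. For the list genes, 32 of 80 differences past 2-fold were below it with normexp, 6 of 81 without scaling, 3 with quantile normalization and at most 1 with each of the others. The dim probes of Ltf, Mpo and Ngp, at signals up to 51.6, limit what can be said of the granule genes.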
